A study of Mus musculus with 2 samples.

Results

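Kit-positive and Kit-negative luminal progenitors were compared in the adult mouse mammary gland. The members were cells of the total epithelium library chosen by their counts, in 2 steps. A luminal progenitor gate kept cells with a summed count of 3 or more for the luminal keratins Krt8, Krt18 and Krt19, under 8 for the basal genes Krt5, Krt14 and Acta2, and under 5 for the mature luminal genes Prlr, Stc2 and Gpx3. Gate cells were then split by Kit, at a count of 1 or more against 0. The gate held 680 of the 3302 cells of the library (20.6%, exact 95% binomial interval 19.2 to 22.0) out of 8073 cells in the series. Of these 680 cells, 89 were Kit-positive and 591 were Kit-negative.

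The series holds 2 libraries from FVB/NJ mice, with no treatment. The total epithelium library was made from lineage-negative CD24+ mammary cells of adult females of 10 weeks, pooled from 4 mice. The other library holds 4771 sorted basal cells from adult mice of the same strain and is used here only for Kit levels. Each group is 1 library, so there was no replicate to test against. Every interval below is a 95% interval that covers counting error only and says nothing of the spread between mice. The libraries shared 28 cell barcodes, 8 of them on gate cells of the total epithelium.

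Kit encodes a receptor tyrosine kinase of the cell surface, and Kitl encodes its ligand, stem cell factor. Binding of the ligand makes the receptor phosphorylate itself and signal through PI3K, the RAS-MAP kinase route and SRC family and STAT proteins. In the mammary gland Kit marks luminal progenitors, the hormone receptor-poor luminal cells that give rise to the milk-secreting alveolar cells. Mast cells and melanocytes also depend on Kit. Kit lies on the plus strand of chromosome 5 at chr5:75574916-75656722 in GRCm38 (mm10).

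Kit transcripts were sparse in every gate cell. There were 105 Kit counts in all. A single Kit count was found in 74 cells, 14 cells had 2 counts and 1 cell had 3. The level was 53.9 Kit CPM (counts per 1000000 total counts, interval 44.1 to 65.3) over the gate, and 13.1% of the cells had a count (10.6 to 15.9). In the mature luminal gate of the same library, which differed only in a sum of 5 or more for Prlr, Stc2 and Gpx3, Kit stood at 7.43 CPM (5.08 to 10.5) and 30 of 1204 cells had a count (2.49%, 1.69 to 3.54). In basal gate cells, with a basal sum of 8 or more and a luminal keratin sum under 3, it was seen in 1 of 590 (0.169%, 0.00429 to 0.941). The paper reports Kit among the luminal genes found in rare sorted basal cells on another platform. The intervals of the luminal progenitor gate did not overlap those of either other gate. Whether free RNA gave some of the Kit counts was not tested. Median totals were 2546 counts per cell in the progenitor gate, 3338 in the mature luminal gate and 1554 in the basal gate. After each cell was thinned to 1500 counts, Kit was found in 7.04% of 568 progenitor gate cells, 1.19% of 1093 mature luminal cells and 0.310% of 323 basal cells. In the sorted basal library 2 of the 150 cells that met the progenitor gate had a Kit count, as did 0 of 1993 basal gate cells (exact upper bound 0.185%). That library had a median of 600 counts in its basal gate cells, so the bound limits cells with a Kit count and not cells that express Kit.

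**Figure D1:**
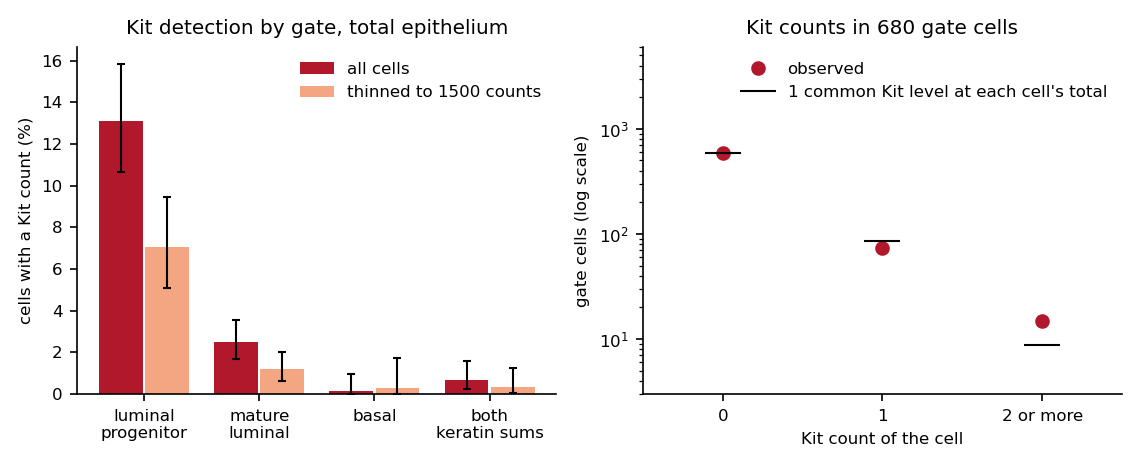
The left panel plots the percentage of cells with a Kit count in 4 gates of the total epithelium library, for all cells and for cells thinned to 1500 counts, with exact 95% binomial intervals as error bars. Cells labelled as having both keratin sums had 8 or more counts of Krt5, Krt14 and Acta2 and 3 or more of Krt8, Krt18 and Krt19. The right panel plots on a log scale how many of the 680 gate cells had a Kit count of 0, 1, or 2 or more (points), beside the numbers that a common Kit level in every cell would give (lines); the points and lines lie close together at 0 and 1.

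A Kit count of 0 did not show that a cell lacked Kit. If all 680 gate cells held Kit at the same level and differed only in total count, 585 cells would have had no Kit count, 86.5 would have had 1 and 8.88 would have had 2 or more. The observed numbers were 591, 74 and 15. Detection followed depth. Among 4 groups of 170 cells in order of total count, Kit was found in 8.82% of the shallowest (5.02 to 14.1) and in 18.8% of the deepest (13.2 to 25.5). The Kit level ran the other way, from 84.9 CPM in the shallowest group to 41.1 CPM in the deepest. The split therefore parts cells by a detected transcript, and cells on the Kit-negative side may carry undetected Kit.

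Total count had to be matched before other genes were compared. Kit-positive cells had 1107 to 8855 counts with a median of 3160, and Kit-negative cells had 804 to 9621 with a median of 2477. Each of the 89 Kit-positive cells was paired with a Kit-negative cell of nearly the same total, and no pair differed by more than 0.0473 on the log2 scale. The sides then held 302044 and 301851 summed counts without Kit, with medians of 3158 and 3160 per cell. The luminal keratin sum, which the gate used, had a median of 75 in Kit-positive cells and 81 in matched Kit-negative cells. No Kit count fell on a cell at the edge of the gate. The 3 cells with the lowest keratin sum inside and the 9 cells just outside, the 1 and 2 cells on either side of the basal limit, and the 11 and 14 cells on either side of the mature luminal limit were all without Kit.

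Both sides were luminal progenitor-like by markers that the gate did not use. Elf5, the transcription factor that directs alveolar differentiation, was detected in 54.7% of all gate cells, against 7.97% of mature luminal and 0.339% of basal gate cells. Elf5 was found in 59.6% of Kit-positive cells (48.6 to 69.8) and in 57.3% of matched Kit-negative cells (46.4 to 67.7). Csn3, which encodes kappa-casein, was found in 92.1% and 88.8%. The interval of either share held the other. The fixed list of luminal progenitor markers outweighed that of mature luminal genes in 88 of 89 Kit-positive cells, in 87 of 89 matched Kit-negative cells and in 555 of all 591 Kit-negative cells (93.9%). Markers of other Kit-bearing cells were near 0. None of the 8 mast cell genes had a count on either side. Of 6 melanocyte genes, Mitf alone was seen, with 3 counts in Kit-positive and 0 in matched Kit-negative cells. The 14 immune genes gave 1 and 3 counts, and the 14 fibroblast and vascular genes gave 11 and 8. In a wider comparison described below the last list gave 11 counts in 87 Kit-positive cells and 81 in 261 Kit-negative cells. Relative to total counts this was a ratio of 0.406 (0.195 to 0.766). The part of this list in other differences was not tested.

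The large majority of genes had similar levels on either side of the Kit split. Of 852 genes with a summed count of 100 or more over both sides, 30 were at least 1.5-fold higher in Kit-positive cells (3.52% of those compared) and 33 were at least 1.5-fold lower (3.87%). These percentages are the background for every list below. The median gene had a ratio of 1.09, or 0.12 on the log2 scale. When ratios were taken relative to that median, 10 genes were higher and 41 lower by 1.5-fold. The counts of the milk and alveolar genes were among those that differed between the denominators. They made up 11.7% of all counts in Kit-positive and 16.5% in matched Kit-negative cells, and without them in the denominators 17 genes were higher and 38 lower, with a median of 0.04 on the log2 scale. The ratios in the following paragraphs are to the full total count.

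**Figure D2:**
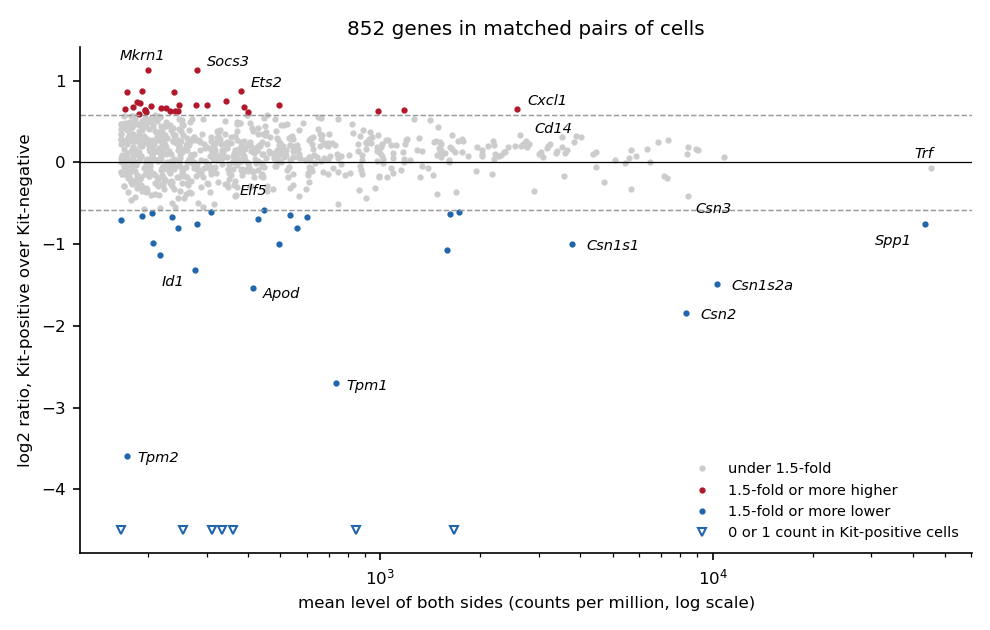
Each point is 1 of 852 genes, plotted by its mean level in both sides (CPM, log scale) and by its log2 ratio of Kit-positive over matched Kit-negative cells. Dashed lines mark 1.5-fold, and triangles at the lower edge mark genes with 0 or 1 count in Kit-positive cells, all 7 from the muscle-type cell described in the text.

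The lowest ratios came from a single Kit-negative cell. Tnnt3, Tnnc2, Mylpf, Ckm, Atp2a1 and Acta1, which encode contractile, calcium pump and energy proteins of skeletal muscle, and Car3, which encodes a carbonic anhydrase abundant in muscle and fat, had 0 or 1 count in Kit-positive cells. Acta1 had 1003 counts in matched Kit-negative cells and Ckm had 509, with 98.7% or more of each of the 7 genes in the same cell. Of the 7371 counts of that cell, 2081 were of Acta1, Ckm, Tnnt3, Tnnc2 and Mylpf. The tropomyosin genes Tpm1 and Tpm2 also owed 90% of their Kit-negative counts to it, and these were the only 2 basal list genes compared. Across the library 9 cells had 50 or more counts of the 5 muscle genes, of which 2 met the gate, both without Kit, and 7 passed neither keratin sum. In all, 12 of the 33 lower genes had most of their Kit-negative counts in 1 cell, and none of the 30 higher genes had most of its Kit-positive counts in 1 cell. Without the muscle-type cells 29 genes were higher and 25 lower of 843 compared.

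A wider comparison was therefore made, after these values were seen. It used 3 Kit-negative cells for each Kit-positive cell and left out the muscle-type cells, with 87 and 261 cells and 1564 genes compared. The deepest Kit-positive cells, with 8854 and 8588 counts without Kit, lacked 3 partners of like total and were left out. In it 54 genes were at least 1.5-fold higher (3.45%) and 56 lower (3.58%), or 32 and 70 relative to its own median gene. It shares its Kit-positive cells and some Kit-negative cells with the comparison of 89 pairs, so it is no independent check of it. Of the 30 higher genes 3 were past 1.5-fold in both (10% of the calls in the pairs and 5.56% of those in the wider comparison). Of the 33 lower genes 14 were (42.4% and 25%). Both values are given for the genes below, the pairs first. Of 34 genes named here and followed through 20 alternative matchings, gates and denominators, 27 had a value in each of them, and of these Csn2, Ets2 and Id1 were the 3 past 1.5-fold in all 20. The 34 genes were chosen from the calls in the pairs, and the alternatives reuse many of the same cells, so they are no independent check either. Pairing within 0.05 changed no value, and some alternatives only rescaled every ratio by 1 factor.

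The casein genes Csn2, Csn1s2a and Csn1s1 had fewer counts in Kit-positive cells, and Csn3 differed less. Caseins are the main proteins of milk, and their genes lie close together on chromosome 5. Csn2, the gene of beta-casein (chr5:87692624-87699630, minus strand), had 1099 counts in Kit-positive and 3925 in matched Kit-negative cells, a ratio of 0.280 (0.261 to 0.299), and 0.488 (0.456 to 0.521) in the wider comparison. Over the alternatives its ratio ran from 0.222 to 0.658. Csn1s2a, an alpha-S2-casein gene (chr5:87774567-87788797, plus strand), gave 0.357 (0.337 to 0.378) and 0.510, but 0.742 without the deepest 10% of cells and 0.778 with mature luminal sums under 2. Csn1s1, the gene of alpha-S1-casein (chr5:87666208-87682578, plus strand), gave 0.502 (0.459 to 0.548) and 0.641, but 0.703 over all cells unmatched and 0.747 with cells thinned to 1500 counts. Lalba, which encodes alpha-lactalbumin of the lactose synthase complex, gave 0.658 and 0.712, the second short of 1.5-fold, and it turned to 1.34 in pairs below the median total and 1.01 without the deepest cells. Csn3 stayed under 1.5-fold at 0.752 and 0.897. Without matching, Csn3 stood at 7084 CPM in all Kit-negative cells and 7430 CPM in cells with 1 Kit count. It was 5963 CPM in the 15 cells with 2 or more.

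The casein difference lay in a few cells with very high counts and not in how many cells were positive. Csn2 was detected in 38.2% of Kit-positive cells (28.1 to 49.1) and in 39.3% of matched Kit-negative cells (29.1 to 50.3), and the median cell of each side had a count of 0. The highest Kit-positive cell had 185 Csn2 counts and the highest matched Kit-negative cell had 798. A Csn2 count of 100 or more was found in 3 of 89 Kit-positive cells (3.37%, 0.701 to 9.54), in 10 of 89 matched Kit-negative cells (11.2%, 5.52 to 19.7), and in 24 of all 591 Kit-negative cells (4.06%, 2.62 to 5.98). These intervals overlap. For Csn1s2a the cells with 100 or more were 5 of 89, 8 of 89 and 39 of 591, and a single Kit-negative cell with 1702 counts held 37.0% of the matched Kit-negative total. The narrow intervals of the ratios count transcripts, which were concentrated in these cells, and do not cover the spread between cells.

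**Figure D3:**
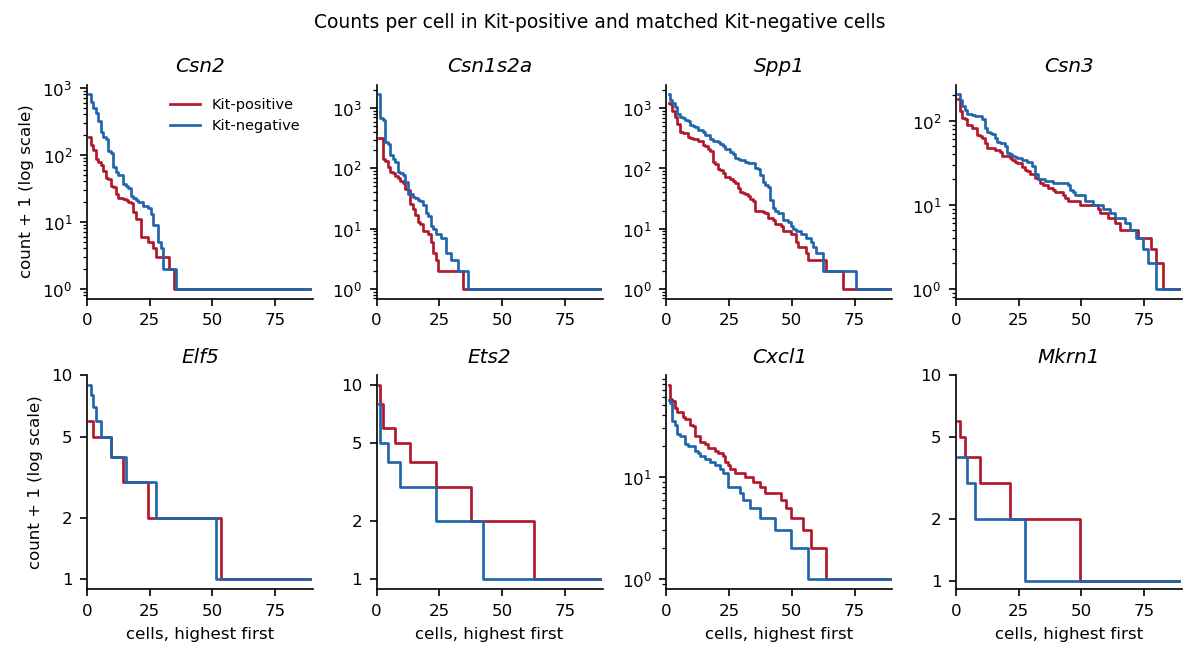
Each panel plots 1 gene, with the 89 Kit-positive and 89 matched Kit-negative cells ordered from highest to lowest count (x axis) against count + 1 on a log scale (y axis). The Csn2 and Csn1s2a lines part at the left, among the highest cells, and reach a count of 0 at nearly the same number of cells, while Ets2 and Mkrn1 stay above 0 in more Kit-positive cells.

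The sequences before the casein genes are shown because 3 casein genes were lower in both comparisons. STAT proteins bind a palindrome of the form TTCNNNGAA, and STAT5 is the factor through which prolactin switches on casein genes. The RefSeq promoter table for GRCm38.p6 was searched for it in the 250 bases before each start, where it reads the same on both strands. It occurred before Csn1s1 and Csn2, at 100 to 92 and 93 to 85 bases before the start in that table. It did not occur in these windows before Csn1s2a, Lalba, Spp1 or Kit. The GENCODE span given above for Csn2 begins further upstream, at 87699630 on the minus strand, so the Csn2 site lies inside that span. The match is in capitals, with 10 bases on either side, at chr5:87666098-87666126 (plus strand) and chr5:87699500-87699528 (minus strand).
Csn1s1: tttgtaacaaTTCTTAGAAtttatgtaaa
Csn2: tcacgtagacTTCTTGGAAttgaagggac
The palindrome was present before 1940 of 27025 genes in the table (7.18%). Among the genes compared in the pairs, it was present before 35 of the 655 matched by symbol (5.34%). Of the 33 lower genes 25 were matched by symbol and 3 had it (Csn1s1, Csn2 and Nupr1), and of 21 matched higher genes 1 had it (Socs3). A match of letters does not show binding.

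The milk and alveolar list had a lower summed count in Kit-positive cells. Of its 24 genes 13 were compared, with 0 higher and 6 lower, and the median log2 ratio was -0.50 against 0.12 over all 852 genes. The summed ratio was 0.711 (0.702 to 0.721), and 0.734 in the wider comparison, where 1 gene was higher and 6 lower of 15 and the median log2 ratio was -0.25 against 0.08 over all 1564 genes. Spp1, which encodes the secreted phosphoprotein osteopontin, had 9818 and 16505 counts, a ratio of 0.594 (0.580 to 0.610) and 0.559, but 0.697 over all cells unmatched. Its median was 11 counts in Kit-positive and 17 in matched Kit-negative cells, with 500 or more counts in 5 and 11 cells of 89. In the wider comparison 500 or more Spp1 counts were found in 3 of 87 Kit-positive and 26 of 261 Kit-negative cells. The deepest Kit-positive cells, left out there, had 910 and 1170 Spp1 counts. Folr1, the gene of a folate receptor, was detected in 46.1% and 57.3% of cells, with a ratio of 0.502 (0.391 to 0.642) and 0.533, and 0.671 over all cells unmatched. Other abundant members did not reach 1.5-fold. Trf, the gene of the iron carrier transferrin, gave 0.951 and 0.861, Plet1, a surface protein of progenitors, gave 1.11 and 1.06, and Mfge8, a milk fat globule protein, gave 1.19 and 1.06.

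**Figure D4:**
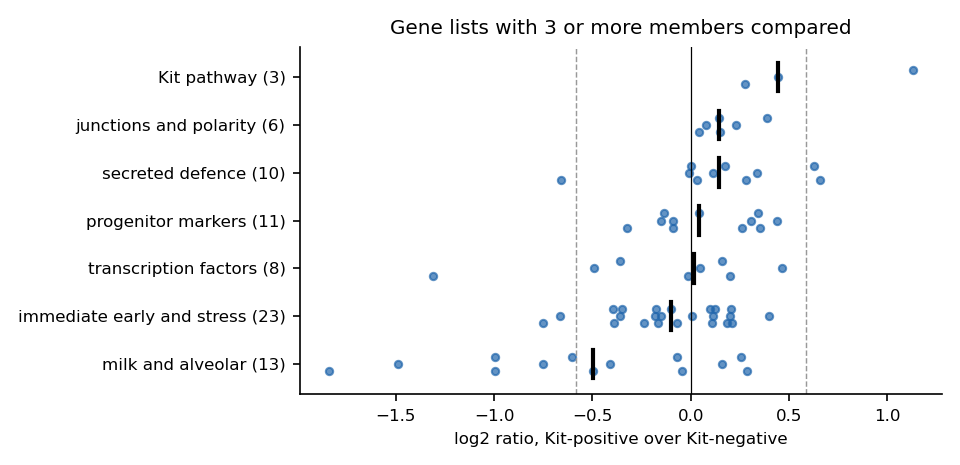
Each point is a gene of the 7 lists with 3 or more members compared, plotted by its log2 ratio of Kit-positive over matched Kit-negative cells. Bars mark list medians, which run from -0.50 for milk and alveolar genes to 0.44 for the Kit pathway list, numbers in parentheses are the genes compared, and dashed lines mark 1.5-fold.

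The Kit pathway list, with the ligand, adaptors, kinases and targets, was mostly too sparse to compare. Only 3 of 40 genes reached 100 counts in the pairs, with 1 higher, and the median log2 ratio was 0.44. In the wider comparison 6 were compared, with 0 higher and 0 lower, and the median log2 ratio was 0.23. Socs3, which encodes a feedback inhibitor of cytokine and STAT signalling, had 116 and 53 counts, a ratio of 2.19 (1.57 to 3.09), and 1.49 in the wider comparison, just under the threshold. Over all cells unmatched it was 1.19. It was detected in 41.6% of Kit-positive and 30.3% of matched Kit-negative cells. Socs3 stood at 384 CPM in Kit-positive and 324 CPM in all Kit-negative cells. It was higher in the other gates, at 4618 CPM in basal and 1041 CPM in mature luminal cells. Dusp6, a MAP kinase phosphatase induced by that pathway, gave 1.36 (0.958 to 1.94) and 1.25. Stat3 gave 1.21 and 1.10. Kitl had 54 and 34 counts, fewer than the 100 required, and was found in 38.2% of Kit-positive and 29.2% of matched Kit-negative cells. Over all gate cells Kitl stood at 140 CPM (124 to 157), against 118 CPM in mature luminal and 505 CPM in basal gate cells. Summed over its 40 genes the list had 626 and 476 counts in the pairs, of which Socs3 alone gave 116 and 53. The summed ratio of the list was 1.31 (1.16 to 1.48) in the pairs and 1.10 (0.999 to 1.21) in the wider comparison. None of 25 other receptor tyrosine kinase genes reached 100 counts in the pairs, and their summed ratio was 0.978 (0.767 to 1.25).

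Other progenitor markers were under 1.5-fold in either direction. Of 22 listed genes 11 were compared, 0 were past 1.5-fold in either direction, and the median log2 ratio was 0.04. Cd14, a co-receptor for bacterial lipopolysaccharide, had 905 and 756 counts, with ratios of 1.196 (1.08 to 1.32) and 1.07. Elf5 gave 0.902 (0.683 to 1.19) and 0.826, Muc15, a membrane mucin, gave 0.939 and 0.858, and Btn1a1, a milk fat globule membrane protein, gave 0.798 and 0.729. Aldh1a3, a retinaldehyde dehydrogenase, had 39 and 42 counts. The 27 mature luminal genes gave 1 gene compared and a summed ratio of 0.955 (0.788 to 1.16) in the pairs. In the wider comparison their summed ratio was 0.638 (0.543 to 0.747). There 3 of them were compared, with 0 higher and 2 lower, and the median log2 ratio was -0.82.

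Secreted defence genes were mixed. Of 10 compared, 2 were higher and 1 lower. Cxcl1, which encodes a neutrophil-attracting chemokine (chr5:90891241-90893115, plus strand), had 950 and 603 counts, with ratios of 1.57 (1.42 to 1.75) and 1.53 (1.40 to 1.66). Its median count per cell was 6 in Kit-positive and 2 in matched Kit-negative cells. By Kit count, Cxcl1 stood at 1989 CPM in all Kit-negative cells, 3353 CPM in cells with 1 Kit count and 1919 CPM in the 15 cells with 2 or more. Csf3, the gene of granulocyte colony-stimulating factor, gave 1.54 and 1.19, and Cxcl2, a related chemokine, gave 1.26 and 1.41. Lbp, which encodes the lipopolysaccharide-binding protein, gave 0.633 and 0.611. Lcn2, the siderophore-binding lipocalin, and Ltf, lactoferrin, stood at 0.993 and 1.08 in the pairs.

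The 12 highest genes had ratios of 1.62 to 2.19 in the pairs, and each of the 12 was closer to 1 in the wider comparison. Mkrn1, a ubiquitin ligase gene (chr6:39397804-39420462, minus strand), had 83 and 38 counts, with ratios of 2.18 (1.47 to 3.29) and 1.55 (1.17 to 2.05). It was detected in 55.1% of Kit-positive cells (44.1 to 65.6) and 30.3% of matched Kit-negative cells (21.03 to 41.0). Ets2, an ETS family transcription factor (chr16:95702075-95721051, plus strand), had 148 and 81 counts, with ratios of 1.83 (1.38 to 2.42) and 1.53 (1.24 to 1.88). It was detected in 69.7% (59.0 to 79.0) and 47.2% (36.5 to 58.1) of cells. Both genes were named for their high ratios in these same pairs, so their shares there give no separate support. With all cells thinned to 1500 counts, Ets2 was found in 45.8% of 83 Kit-positive and 35.9% of 485 Kit-negative cells, and Mkrn1 in 36.1% (25.9 to 47.4) and 24.3% (20.6 to 28.4). The intervals of both genes then overlapped. These genes and Cxcl1 were the 3 higher genes past 1.5-fold in both comparisons, with ratios to the full total count. The median gene of the wider comparison had a ratio of 1.05, and relative to it none of the 3 reached 1.5-fold there. In the pairs Cxcl1 was 1.45 relative to the median gene and 1.49 without the milk and alveolar list in the denominators. Mkrn1 was 1.48 over all cells unmatched and 1.38 for a Kit count of 2 or more, where Cxcl1 was 1.13.

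The other highest genes did not reach 1.5-fold in the wider comparison. Max, the dimerisation partner of MYC, gave 1.83 and 1.34. Cct2, a subunit of the cytosolic chaperonin, gave 1.63 and 1.497. Tecr, an enzyme of very long chain fatty acid elongation, gave 1.69 and 1.26, and Rab4a, a small GTPase of endosome recycling, gave 1.81 and 1.28. Marc2, Rasd1 and Vps37b gave 1.67, 1.65 and 1.62, then 1.39, 1.32 and 1.31. Hsp90b1, a chaperone of the endoplasmic reticulum, and Prdx6, a peroxidase, went from 1.82 and 1.62 to 1.05 and 1.08. The intervals of both held 1 in the wider comparison, as did those of Rab4a and Rasd1.

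**Figure D5:**
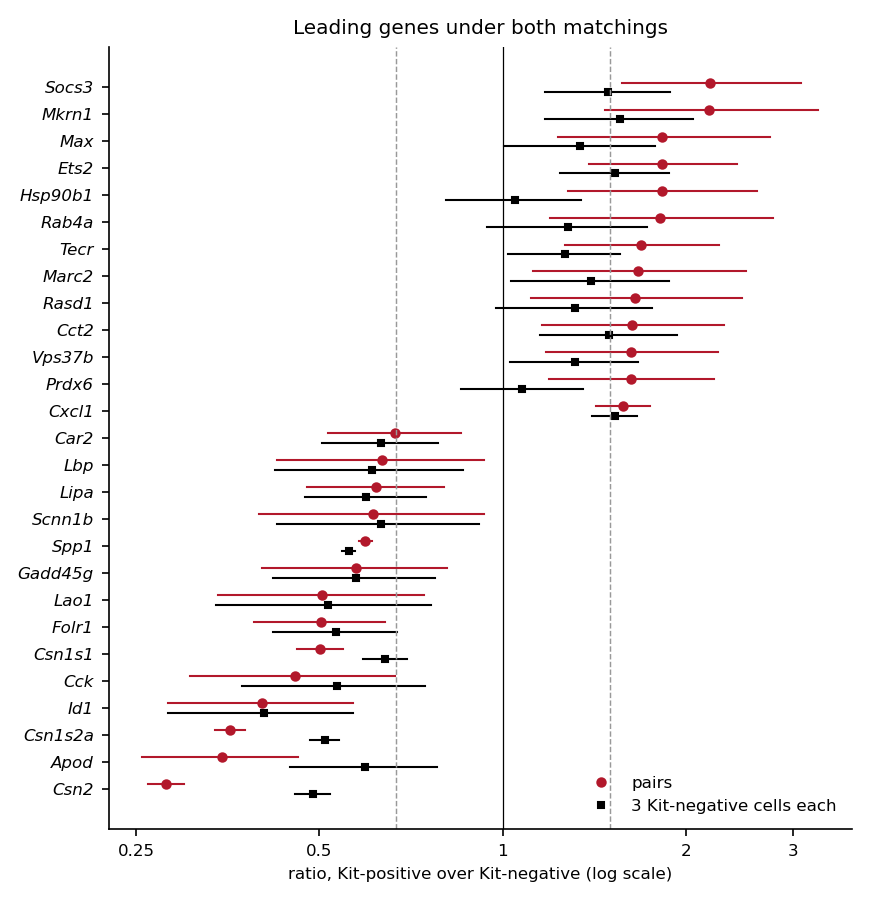
Ratios of Kit-positive over Kit-negative cells (log scale) with 95% counting intervals, for the 12 highest genes of the pairs and the 17 genes past 1.5-fold in both comparisons. Circles are the 89 pairs and squares are 87 against 261 cells without muscle-type cells. The squares of the higher genes lie closer to 1 than their circles.

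Of the list of luminal transcription factors 8 were compared in the pairs and 1 was past the threshold, and in the wider comparison 12 were compared, with 1 higher and 1 lower. Id1, an inhibitor of basic helix-loop-helix factors (chr2:152736251-152737410, plus strand), had 48 and 119 counts, with ratios of 0.403 (0.282 to 0.568) and 0.405 (0.282 to 0.568). It was detected in 21.3% and 27.0% of cells, and the highest cell held 13 of the 119 Kit-negative counts. Its relative Id2 gave 0.710 and 0.732. Elf3 and Irx3 gave 0.989 and 1.12, and Myc gave 0.778 and 0.714. Of 19 Notch pathway genes, which direct luminal fate, Hes1 alone was compared, at 1.05 (0.873 to 1.27) and 1.19. Of 22 junction and polarity genes 6 were compared and 0 were past the threshold, with Epcam at 1.06 and Cldn4 at 1.03.

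Dissociation and proliferation genes gave no higher call in the pairs. Of 23 immediate early and stress genes compared there, 0 were higher and 2 were lower, with a median log2 ratio of -0.10. The 2 were Klf4 and Hspa1a, at 0.594 and 0.632 in the pairs and 0.745 and 0.766 in the wider comparison, and they turned to 1.86 and 3.19 for a Kit count of 2 or more. Reads of Hspa1a can be shared with its near-identical copy, so its value is uncertain. Fos gave 0.848, Jun 0.786 and Junb 1.14. The 29 cell cycle genes had 416 and 299 summed counts, a ratio of 1.39 (1.196 to 1.62), and 1.33 in the wider comparison, yet only the tubulin gene Tubb5, at 1.499 and 1.52, and the histone gene H2afz, at 1.36 and 1.44, were compared in the pairs, and both are also expressed outside the cycle. Tubb5 was the 1 gene past 1.5-fold of 5 in the wider comparison. No lipid synthesis gene reached 100 counts in the pairs, where their summed ratio was 0.966 (0.792 to 1.18). In the wider comparison 2 were compared, of which Elovl1, a fatty acid elongase, was lower at 0.657 (0.416 to 1.0029), and the median log2 ratio was -0.48. Krt7, the only other keratin compared, gave 0.972. Cytoplasmic ribosomal protein genes were above 1 in 53 of the 62 compared, with 3 past 1.5-fold. Their median log2 ratio was 0.20, against 0.12 over all 852 genes. In the wider comparison 57 of 68 were above 1, with 0 past 1.5-fold and a median of 0.10, against 0.08 over all 1564 genes. The median gene was thus itself above 1 in both comparisons.

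The remaining genes lower in both comparisons were outside the lists. They were chosen after their values were seen, as the genes past 1.5-fold in both. Cck, the gene of the peptide cholecystokinin, gave 0.455 and 0.534, and Lao1, an amino acid oxidase of milk, gave 0.506 and 0.516. Gadd45g gave 0.574 and 0.575, Scnn1b, a subunit of the epithelial sodium channel, gave 0.613 and 0.631, Lipa, the lysosomal acid lipase, gave 0.618 and 0.597, and Car2, a carbonic anhydrase, gave 0.666 and 0.632. Apod, a lipocalin, gave 0.346 and 0.595, but 78.9% of its matched Kit-negative counts came from 1 cell, and without each gene's highest cell it was 1.08.

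Some genes ran in order of the Kit count and others did not. Of 25 genes compared in this way, muscle genes left out, 7 rose in order over 0, 1 and 2 or more Kit counts, 5 fell in order and 13 did neither. Most of the 25 were named for their ratio across the same Kit split, so their step from 0 to 1 is no separate result. The classes were not matched for total count, with medians of 2477 counts at a Kit count of 0 and 3247 at 1. The 15 cells with 2 or more Kit counts had 2422 Csn2 CPM (1983 to 2929), against 3845 CPM in the 74 cells with 1 count and 6235 CPM in the 591 cells with none. Spp1 ran in the same order, at 8774, 36527 and 46631 CPM. Csn1s2a, Lalba and Apod also fell in order, and Socs3, Max, Tecr, Rab4a, Marc2, Cd14 and Wfdc18 rose in order. Elf5 did not, at 388, 329 and 417 CPM, nor did Ets2, at 343, 515 and 320 CPM. Only 15 cells carry the first value of each, and few cells hold most of the milk gene counts, so these orders are a description of these cells. The number of genes detected was similar, with a median of 740 genes in 83 Kit-positive and 715 in 485 Kit-negative cells after thinning to 1500 counts, which left out 6 and 106 shallower cells.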

How the data were processed

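Single mammary cells were captured on the 10X Genomics Chromium 3′ platform. The authors deposited counts of unique molecules per gene and cell, made with Cell Ranger 1.2.1 on mm10 per the labels (processing notes of the submitters), for 27998 genes. The annotation is not given in the sources used here. Depth was 802 to 12967 counts per cell in total epithelium and 137 to 1946 in sorted basal cells. No doublets were removed here.

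Cells were gated on summed counts as described. Pairs were matched without replacement on the log2 total without Kit, within 0.1. Counts were summed per side (Python 3.11.15, numpy 2.4.6, scipy 1.17.1, pandas 2.3.3). Ratios of CPM carry exact conditional binomial 95% intervals and shares have Clopper-Pearson intervals. A gene needed a summed count of 100 and a ratio past 1.5-fold. Kit and the 9 gate genes were left out. With 1 library per group no test was run. The text names the 12 highest and 12 lowest genes, up to 5 abundant members per list and any list member past 1.5-fold. There were 18 fixed gene lists, and Cebpd was the only listed gene not matched. The members and lists were chosen with earlier results of these data known. Scripts were tested on simulated data. Gene positions are from GENCODE M21.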

Additional observations from a re-analysis of the deposited data

How the results depend on the processing

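With 20 planned and 4 later alternatives, the numbers of genes past 1.5-fold moved with how cells were matched and genes were filtered. The 30 higher and 33 lower genes became 107 and 128 with all cells unmatched, 9 and 19 with all cells weighted within 10 depth bins, 56 and 67 with cells thinned to 1500 counts, 551 and 347 with a minimum summed count of 20, 8 and 19 with 200, and 3211 and 2839 with no filter. They were 2 and 15 at 2-fold, 16 and 10 for a Kit count of 2 or more against 0, 13 and 12 in pairs below the median total, 59 and 61 with 3 Kit-negative cells each, and 54 and 56 when the muscle-type cells were also left out. Higher genes were 10 with centred ratios and 17 without the milk list in the denominator, and lower genes were 19 without each gene's highest cell and 11 without the deepest cells (top 10% of totals). The share of gate cells with Kit was 7.04% after thinning and 12.4 to 13.7% under the other gates. Of the 27 genes with a value in 20 alternatives 17 kept their side of 1 in each and 10 crossed it, and 7 genes of the muscle-type cell had a value in only some. In pairs below the median total Max was 0.889, Tpm2 1, Tpm1 1.36, Apod 10.5 and Lalba 1.34. Without the deepest cells Tpm2 was 1.0003, Tpm1 1.23, Apod 16.0 and Lalba 1.01. For a Kit count of 2 or more Marc2 was 0.922, Prdx6 0.851, Tpm2 3.02, Tpm1 1.56, Klf4 1.86 and Hspa1a 3.19. Hsp90b1 was 0.991 with weighted cells and Prdx6 0.992 after thinning. Without the highest cell Tpm1 was 1.45 and Apod 1.08. Tpm1 was 1.55 without the muscle-type cells, 1.55 with keratin sums of 10 or more, 1.53 in cells with more progenitor than mature luminal counts and 1.19 in the wider comparison, where Tpm2 was 1.75. Apod was 1.65 with mature luminal sums under 2. The causes were not tested beyond the cells each alternative leaves out. No paired analysis was possible because each group is 1 library. Replicates could not be left out for the same reason. The limits are that Kit averaged under 1 count per cell, that few cells hold most casein counts, and that cells of 4 pooled mice could not be told apart.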
